A study of Mus musculus with 18 samples.

Results

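The 10 genes described here encode the machinery by which a cell cuts, transports and displays peptides on major histocompatibility complex (MHC) class I molecules: the heavy chains H2-K1 and H2-D1, their light chain B2m, the peptide transporter genes Tap1 and Tap2, the loading factor Tapbp (tapasin), the immunoproteasome subunits Psmb8, Psmb9 and Psmb10, and Nlrc5, the regulator of class I transcription. They were picked by gene symbol, with no threshold on measured values but with earlier results of these data known, and all 10 were found among the 47643 genes of the deposited table. They were measured by RNA sequencing in MPC3, a mouse prostate cancer cell line, in a series that lowers Rnf185, a ubiquitin ligase gene. The comparison had 3 groups of 6 libraries: cells labelled as control, whose titles name plko, a plasmid backbone for hairpins, and cells with the hairpin shRNF185.1 or the hairpin shRNF185.3. The labels give no genotype of MPC3, no description of the control insert, no number of clones and no time after the hairpins were introduced. Libraries 1 and 2 of each group belong to batch 1, libraries 3 and 4 to batch 2, and libraries 5 and 6 to batch 3.

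Class I molecules show fragments of a cell's own proteins to CD8 T cells. Proteins are cut by the proteasome, whose catalytic subunits Psmb5, Psmb6 and Psmb7 can be replaced by Psmb8, Psmb9 and Psmb10 to give the immunoproteasome. The Tap1-Tap2 transporter carries the peptides into the endoplasmic reticulum, where tapasin helps to load them onto a heavy chain paired with B2m. Many tumour cells hold little RNA of these genes, and interferons raise it, in part through Nlrc5, which acts at a shared promoter module with boxes called S, X1, X2 and Y.

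Promoter sequence from RefSeq (GRCm38.p6) was matched for 8 of the 10 genes, with Tap2 and Nlrc5 as the exceptions. The heavy chain and light chain promoters are shown because they carry the X2 and Y boxes in the same arrangement, TGACG followed after 20 bases of any kind by ATTGG, the inverted CCAAT motif. In these 30-base stretches, written 5′ to 3′ in the direction of the gene, capitals mark TGACG and ATTGG.
H2-K1, chr17:34000359-34000388, minus strand: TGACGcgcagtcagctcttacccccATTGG
H2-D1, chr17:35262993-35263022, plus strand: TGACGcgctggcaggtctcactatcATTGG
B2m, chr2:122147609-122147638, plus strand: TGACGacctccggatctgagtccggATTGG
The stretch lies from -41 to -12 relative to the most upstream RefSeq start of H2-K1, from -101 to -72 for H2-D1 and from -78 to -49 for B2m. Relative to another RefSeq start of H2-K1 it lies from -55 to -26. This spacing was searched for after the windows had been seen. In the 250 bases before the start, on both strands, it occurred in 30 of 32851 promoters (0.09%), and in these 3 of the 8 members. TGACG alone occurred in 17.77% of all promoters and in 5 of the 8, and ATTGG alone in 33.85% and in 6 of the 8. Tap1 and Psmb9 start 225 bases apart, so their windows overlap. Both of these motifs lie there at the same bases for each gene and were counted for both. Members were counted by gene, and all promoters by entry. The wider upstream windows of H2-K1 and B2m are shown to give these stretches in their context, with the same letters in capitals.
H2-K1, chr17:34000348-34000597, minus strand: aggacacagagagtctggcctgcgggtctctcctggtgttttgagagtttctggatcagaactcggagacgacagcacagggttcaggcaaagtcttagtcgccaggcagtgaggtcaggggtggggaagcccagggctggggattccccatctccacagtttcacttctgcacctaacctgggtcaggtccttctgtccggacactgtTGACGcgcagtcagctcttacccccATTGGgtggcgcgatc
B2m, chr2:122147437-122147685, plus strand: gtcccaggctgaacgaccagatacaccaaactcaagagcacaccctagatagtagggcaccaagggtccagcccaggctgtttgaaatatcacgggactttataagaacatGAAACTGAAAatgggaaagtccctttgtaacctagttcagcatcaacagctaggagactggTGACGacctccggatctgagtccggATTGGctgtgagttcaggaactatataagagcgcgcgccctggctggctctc
The added capitals in B2m mark GAAACTGAAA, from -139 to -130, a match to the interferon-stimulated response element, searched as GAAA, 2 bases of any kind and GAAA. An exact match to these letters was in 2.98% of promoters and in no other matched member, and the gamma-activated site TTCNNNGAA was in 7.02% of promoters and, among the members, in Psmb8. Looser forms of these motifs were not searched for, so a member without a match is not shown to lack such an element. These matches describe letters in a window and do not show binding.

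Library totals ran from 22027395 to 43379662 counts and did not differ between groups beyond their spread (two-sided exact permutation test, adjusted p from 0.234 to 0.738 over 3 pairs of groups). Rnf185 RNA lay between 33.6 and 38.4 CPM (counts scaled to the effective size of each library) in the control libraries. It lay between 5.19 and 6.80 CPM in the 12 hairpin libraries, so each library matched its label as control or knockdown. The hairpin groups overlapped in Rnf185, so its level cannot tell which hairpin a library carried. Of the epithelial markers Krt8 and Krt18 were abundant, with medians of 1178 and 354 CPM in control, while Pbsn was at 0 in all 18 libraries and Krt5 never exceeded 3 counts. In the adjusted values the control libraries of batch 3 stood apart from the other controls. In 7 of the 10 members, replicates 5 and 6 were the 2 lowest controls, and in 9 of the 10 the highest of all 18 libraries was shRNF185.3 replicate 5. The shares of all genes for these counts were not computed. The deposited tables were batch-adjusted, and the mean log2 level of a gene over the 6 libraries of a batch was nearly equal between batches, with a median range of 0.00862 over 12419 genes, against 0.59 for Nlrc5, 0.39 for H2-K1 and 0.20 for H2-D1. Levels of 1 group therefore cannot be compared between batches, and low controls cannot be told apart from high hairpin libraries there. Differences within a batch remain measurable, and the values of the members without batch 3 are given below. The labels do not say whether the libraries came from separate cultures, so the p-values may measure only technical spread.

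Most of the 10 class I members rose with both hairpins. A gene was called when its Benjamini-Hochberg adjusted p from edgeR's quasi-likelihood test, over 14309 genes tested, was under 0.05. All 10 members were among the genes tested, 8 were called higher with shRNF185.1 and 8 with shRNF185.3, and 0 were called lower. Across the 14309 genes, 14.6% were called higher with shRNF185.1 and 14.2% with shRNF185.3, 14.3% and 13.1% were called lower, and 28.9% and 27.3% were called in either direction. The same genes made up both counts, namely H2-D1, Tap1, Tap2, Tapbp, Psmb8, Psmb9, Psmb10 and Nlrc5. H2-K1 and B2m did not pass with either hairpin. The median log2 fold change of the 10 members was 0.99 with shRNF185.1 and 1.06 with shRNF185.3, beside -0.02 over all genes in both comparisons, which share their control libraries. The largest differences were those of Nlrc5 and the immunoproteasome subunit Psmb8, and the smallest was that of B2m.

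**Figure D1:**
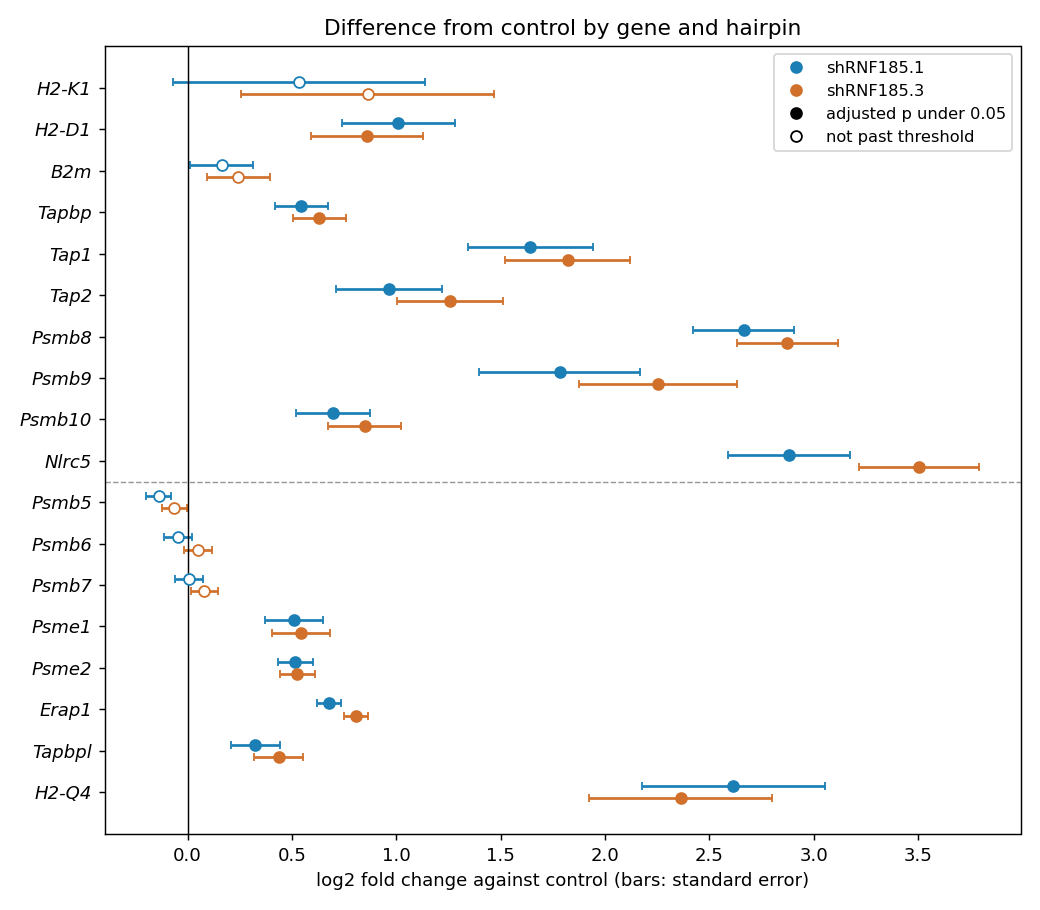
Log2 fold change against control of each hairpin group, for 10 class I members above the dashed line and 8 related genes below it. Bars are standard errors derived from edgeR's F statistic. Filled points passed an adjusted p of 0.05; Nlrc5 and Psmb8 lie farthest to the right among the members, while H2-K1, B2m and the constitutive subunits Psmb5, Psmb6 and Psmb7 have open points with both hairpins.

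Nlrc5, whose protein drives transcription of class I genes, went from near the detection limit to a low but measurable level. The 6 control libraries held 1 to 14 counts of it, with a lowest value of 0.0234, a median of 0.281 and a highest of 0.465 CPM. With shRNF185.1 the lowest, median and highest values were 1.71, 1.89 and 2.13 CPM, and with shRNF185.3 they were 2.58, 2.94 and 3.28 CPM. All hairpin libraries lay above all controls, and the hairpin groups did not overlap each other. The increase was 7.38-fold with shRNF185.1 (95% interval 4.78 to 11.4, edgeR adjusted p 7.32e-07) and 11.3-fold with shRNF185.3 (95% interval 7.41 to 17.4, edgeR adjusted p 7.05e-08). The gene lies at chr8:94434356-94527272 on the plus strand (GENCODE M21, GRCm38, as all positions of genes given here), and it overlaps the antisense gene 9330175E14Rik.

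**Figure D2:**
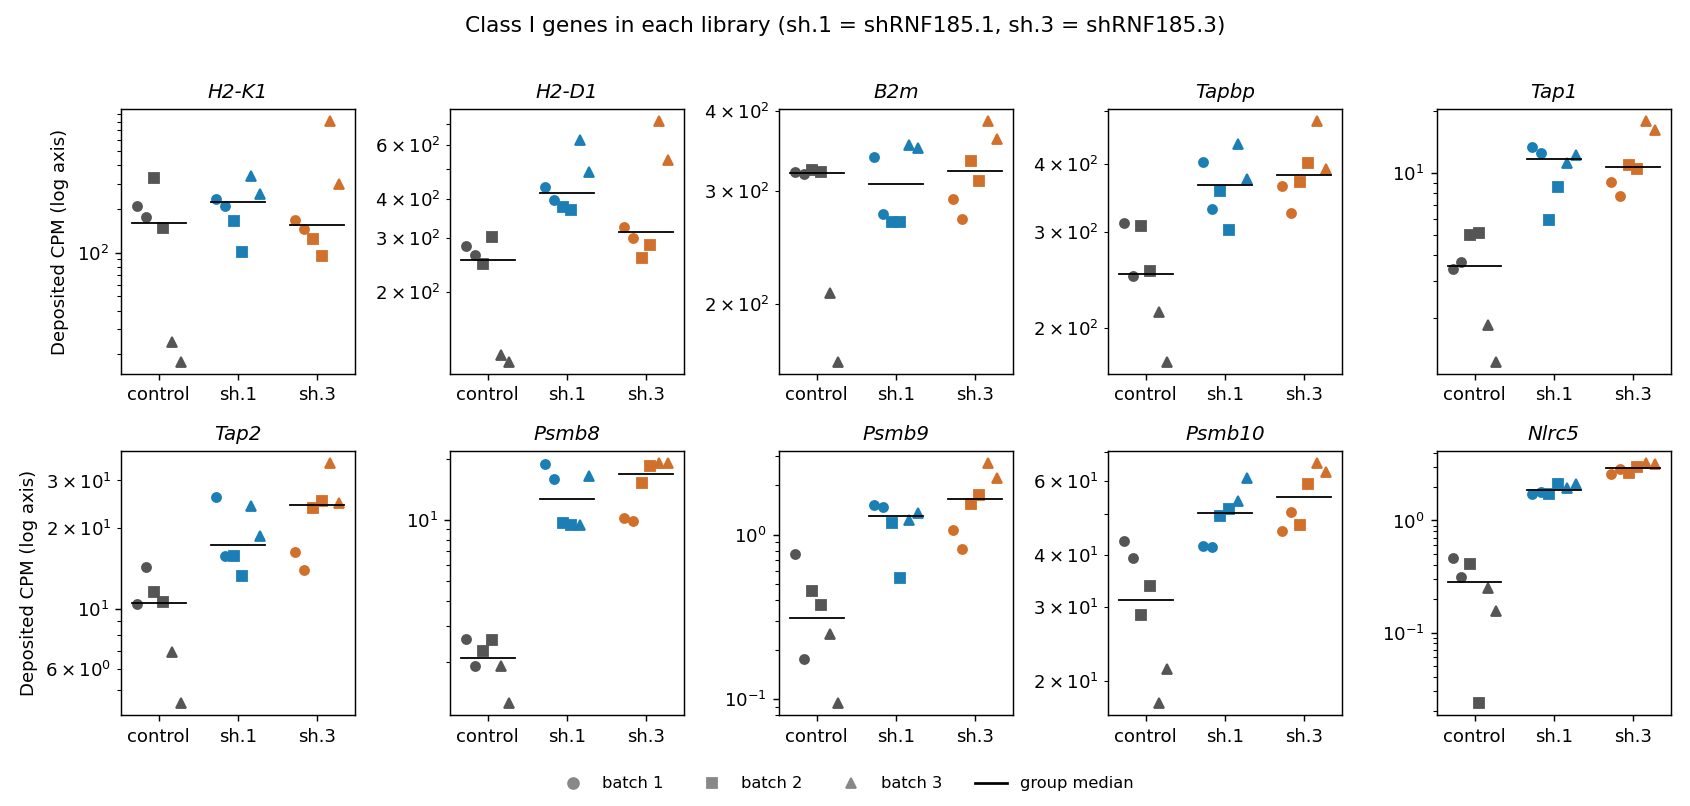
Deposited CPM of the 10 class I members in each of the 18 libraries, each panel with its own log axis; points are libraries, shapes mark the batch, and the black line is the group median. The hairpin points of Nlrc5, Psmb8 and Tap1 lie above every control, while those of H2-K1 and B2m overlap the controls apart from the batch 3 controls (triangles), which are the lowest.

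The immunoproteasome subunits rose, each by a different amount. Psmb8, which replaces Psmb5, had control values of 1.26 to 2.59 CPM with a median of 2.09 CPM. It ranged from 9.42 to 18.9 CPM with shRNF185.1 (median 12.7 CPM) and from 9.83 to 19.1 CPM with shRNF185.3 (median 16.9 CPM), with no overlap with control. The fold change was 6.34 (95% interval 4.43 to 9.08, edgeR adjusted p 1.76e-07) and 7.33 (95% interval 5.12 to 10.5, edgeR adjusted p 9.42e-08). Psmb9, which replaces Psmb6, was the member with the fewest counts after Nlrc5, at 3 to 23 counts or 0.0941 to 0.764 CPM in control. It reached 0.543 to 1.52 CPM with shRNF185.1 (median 1.29 CPM) and 0.822 to 2.74 CPM with shRNF185.3 (median 1.64 CPM). In 5 of 6 and 6 of 6 hairpin libraries Psmb9 exceeded the highest control, and its log2 fold change was 1.78 (SE 0.39) and 2.25 (SE 0.38), with edgeR adjusted p-values of 0.00174 and 0.000196. Psmb10, which replaces Psmb7, was already abundant in control, at 17.7 to 43.2 CPM with a median of 31.2 CPM. Its values were 41.6 to 60.8 CPM with shRNF185.1 (median 50.4 CPM) and 45.5 to 66.2 CPM with shRNF185.3 (median 54.7 CPM). The increase of Psmb10 was 1.62-fold (95% interval 1.25 to 2.1, edgeR adjusted p 0.00534) and 1.80-fold (95% interval 1.39 to 2.33, edgeR adjusted p 0.00128). The Psmb10 call with shRNF185.1 was lost without batch 3 (log2 0.34, edgeR adjusted p 0.067) and with the 2 libraries of a group and batch summed (edgeR adjusted p 0.0756).

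Their constitutive counterparts were not called with either hairpin. The log2 fold changes of Psmb5 were -0.14 and -0.06 (SE 0.06 each), with edgeR adjusted p-values of 0.0881 and 0.46. Psmb6 was at -0.05 and 0.05, and Psmb7 at 0.01 and 0.08, each with an SE of 0.07. Without batch 2, Psmb5 was called lower with shRNF185.1 at -0.20 (edgeR adjusted p 0.0326), and the same happened without control replicate 3, at -0.17 (adjusted p 0.044). The immunoproteasome gene was set against its counterpart per kilobase of exons, as a share of the pair's summed level in each library, a ratio chosen after the values were seen and given with no test. Psmb8 made up a median of 0.403% of the Psmb8 and Psmb5 sum in control (range 0.204% to 0.445%), 2.41% with shRNF185.1 (1.69% to 3.89%) and 3.05% with shRNF185.3 (1.68% to 3.63%). For Psmb9 and Psmb6 the medians were 0.0979%, 0.417% and 0.521% in the same order. For Psmb10 and Psmb7 they were 27.8%, 35.2% and 35.4%, where the control range, 16.4% to 32.4%, reached into the hairpin ranges only with shRNF185.1 (31.7% to 40.0%). On this measure Psmb8 and Psmb9 RNA stayed a small part of their pairs in every library. Psmb10 was a sizeable part in control cells too. The shares depend on exon lengths that join all annotated exons of a gene. These were 3381 bases for Psmb8 and 899 for Psmb5, and 3660 and 1872 for Psmb9 and Psmb6. For Psmb10 and Psmb7 they were 1705 and 3421 bases. Median CPM without length scaling was 16.9 for Psmb8 and 143 for Psmb5 with shRNF185.3. In control it was 31.2 for Psmb10 and 181 for Psmb7.

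**Figure D3:**
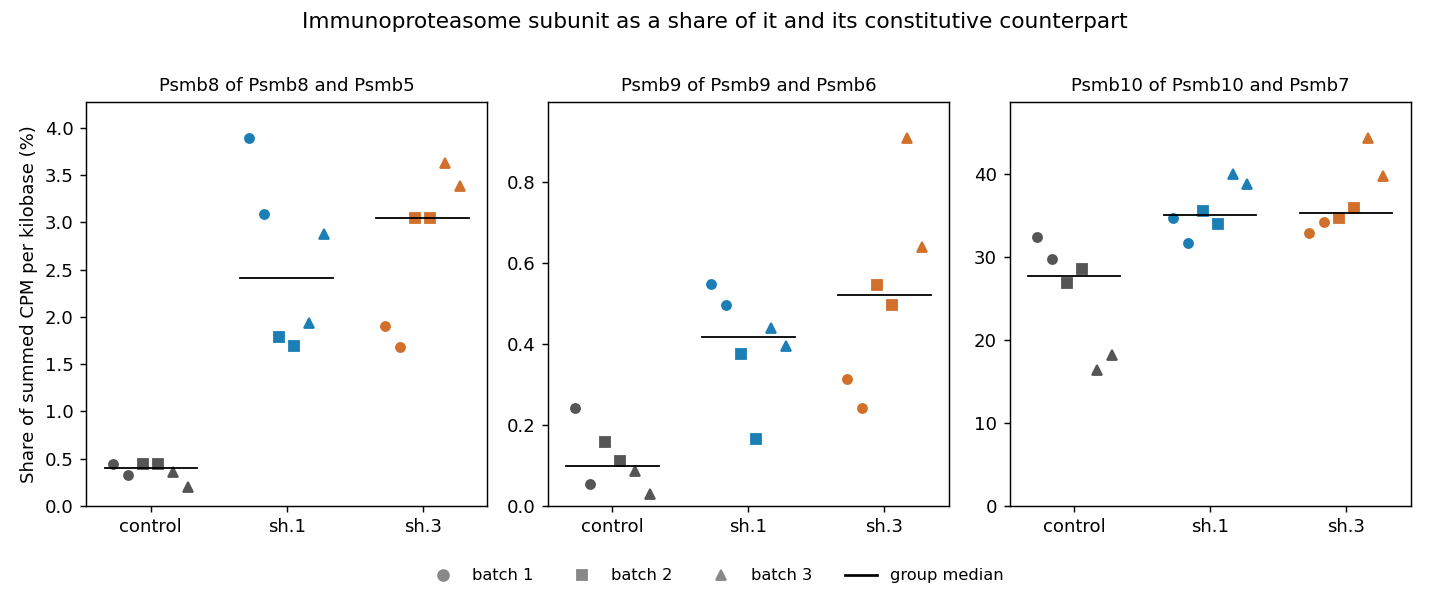
Share of each immunoproteasome subunit in the summed CPM per kilobase of that subunit and its constitutive counterpart, in percent, one point per library with shapes for the batch and a line at the group median; each panel has its own linear axis from 0. The Psmb8 medians are 0.403% in control, 2.41% with shRNF185.1 and 3.05% with shRNF185.3, and Psmb10 starts from a median of 27.8%.

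Transporter RNA rose more for Tap1 than for Tap2 in the point estimates, a contrast that was not tested. Tap1 in control ran from 1.22 to 5.11 CPM with a median of 3.57 CPM. With shRNF185.1 the range was 5.96 to 13.4 CPM (median 11.7 CPM), and with shRNF185.3 it was 7.76 to 17.8 CPM (median 10.7 CPM). All 12 hairpin libraries lay above the highest control, at 3.12-fold (95% interval 2.0 to 4.86, edgeR adjusted p 0.000391) and 3.53-fold (95% interval 2.27 to 5.51, edgeR adjusted p 0.000161). Tap2 ran from 4.46 to 14.3 CPM in control (median 10.5 CPM), from 13.3 to 26.0 CPM with shRNF185.1 (median 17.3 CPM) and from 13.9 to 34.9 CPM with shRNF185.3 (median 24.3 CPM). With either hairpin 5 of 6 libraries had more Tap2 than any control, and the fold change was 1.95 (95% interval 1.34 to 2.84, edgeR adjusted p 0.00739) and 2.39 (95% interval 1.64 to 3.48, edgeR adjusted p 0.00106). Without batch 3 the Tap2 call with shRNF185.1 was lost (log2 0.59, adjusted p 0.0853), as it was with summed libraries (adjusted p 0.0657).

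Tapbp, the tapasin gene, rose by less but from a high level. Its control values were 173 to 311 CPM with a median of 252 CPM, against 303 to 435 CPM with shRNF185.1 (median 366 CPM) and 326 to 480 CPM with shRNF185.3 (median 381 CPM). The groups touched only with shRNF185.1, in 1 library. The fold change was 1.46 (95% interval 1.21 to 1.76, edgeR adjusted p 0.00304) and 1.55 (95% interval 1.28 to 1.87, edgeR adjusted p 0.00103).

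Tap1 and Psmb9 stand head to head on chromosome 17. Their RefSeq starts are separated by 225 bases, with Tap1 at chr17:34187553-34197225 on the plus strand and Psmb9 at chr17:34181987-34187764 on the minus strand in GENCODE. The GENCODE models overlap, and although the library kit marks strand, the sources used here do not state whether counting used it, so reads in the overlap cannot be told apart. Psmb8 (chr17:34197721-34201454) and Tap2 (chr17:34203527-34216321) follow on the plus strand, and both overlap the antisense gene Gm20496. Tapbp (chr17:33915899-33929292) lies farther off on the same chromosome and Psmb10 (chr8:105935735-105938444, minus strand) on another. The Tapbp model overlaps Zbtb22 on the same strand and Gm19412 on the other. Of its 75-base windows 1.1% also occur as exact copies in other genes, a share that does not bound the uncertainty of its counts.

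Of the 3 genes for the molecule that carries the peptide, H2-D1 was called with both hairpins. H2-D1, a heavy chain at chr17:35262730-35267499, had control values of 281, 263, 246, 301, 125 and 119 CPM in replicates 1 to 6. It ranged from 370 to 621 CPM with shRNF185.1 (median 417 CPM), above every control, and from 257 to 716 CPM with shRNF185.3 (median 313 CPM), where 3 of 6 libraries exceeded the highest control. The fold change was 2.01 (95% interval 1.35 to 3.0, edgeR adjusted p 0.00805) and 1.81 (95% interval 1.22 to 2.7, edgeR adjusted p 0.0232). The call with shRNF185.3 was lost without batch 3 (log2 0.10, adjusted p 0.47) and without control replicate 5 or 6 or shRNF185.3 replicate 5 or 6 (adjusted p 0.0501 to 0.0795), and with the batch as a covariate (0.0609). With summed libraries H2-D1 was called with neither hairpin (edgeR adjusted p 0.1 and 0.162).

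H2-K1, the other heavy chain, at chr17:33996017-34000347 on the minus strand, was the most variable member. Its control values were 209, 175, 329, 148, 24.2 and 17.7 CPM in replicates 1 to 6. In these adjusted values the batch 3 controls were far below the others, which cannot be told apart from high hairpin libraries in that batch. With shRNF185.1 it ran from 102 to 340 CPM (median 223 CPM) and with shRNF185.3 from 94.9 to 808 CPM (median 157 CPM), and with either hairpin only 1 library had more H2-K1 than any control. The fold change was 1.45 (95% interval 0.594 to 3.53, edgeR adjusted p 0.545) and 1.82 (95% interval 0.744 to 4.45, edgeR adjusted p 0.313). Without batch 3 the direction turned, to log2 fold changes of -0.27 and -0.69 (edgeR adjusted p 0.559 and 0.114). Without batch 2 they were 1.29 and 1.74, also not called, and leaving out shRNF185.3 replicate 5 alone took the value with shRNF185.3 from 0.86 to 0.15. Class I heavy chains are near-identical copies in part. Of the 75-base windows of H2-K1 transcripts 3.10%, and of those of H2-D1 5.40%, also occur in other genes. Reads from such windows cannot be assigned by sequence alone. Only exact copies were counted, so these shares do not bound the uncertainty of the counts.

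B2m, the light chain at chr2:122147686-122153083, had the smallest differences. In control it was 322, 320, 324, 322, 208 and 163 CPM in replicates 1 to 6. The hairpin values, 269 to 354 CPM (median 308 CPM) and 272 to 386 CPM (median 323 CPM), surrounded the first 4 controls, and with either hairpin 3 of 6 libraries had more B2m than any control. The fold change was 1.12 (95% interval 0.897 to 1.4, edgeR adjusted p 0.446) and 1.18 (95% interval 0.947 to 1.48, edgeR adjusted p 0.249). Without batch 3 the log2 fold changes were -0.16 and -0.09, neither of them called.

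Per kilobase of exons the control levels fell in the order B2m (321 ± 83.7 CPM per kilobase, SD, n = 6), H2-D1 (86.2 ± 31.0), Tapbp (69.4 ± 14.7), H2-K1 (51.2 ± 40.1), Psmb10 (18 ± 5.86), Tap2 (2.57 ± 0.93), Tap1 (0.62 ± 0.293), Psmb8 (0.617 ± 0.149), Psmb9 (0.096 ± 0.0658) and Nlrc5 (0.0318 ± 0.0193). Neighbours in this order that differed by less than the larger of their SDs were H2-D1 and Tapbp, Tapbp and H2-K1, H2-K1 and Psmb10, Tap1 and Psmb8, and Psmb9 and Nlrc5. The display molecules were present at high levels in control cells, whereas the transporter, Psmb8, Psmb9 and Nlrc5 were scarce. The ratio of H2-K1 to H2-D1 per kilobase, given with no test, was 0.17 and 0.131 in the batch 3 controls, against 0.454 to 0.991 in the 4 hairpin libraries of that batch. In batches 1 and 2 it was 0.432 to 1.17 in controls and 0.242 to 0.473 in hairpin libraries.

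The size of the hairpin effect differed between batches. The 4 interaction coefficients of group and batch, tested together in edgeR, passed an adjusted p of 0.05 for 7 of the 10 members, against 9.81% of all genes. These were H2-D1 (adjusted p 0.000226), Tap1 (0.000476), H2-K1 and Psmb10 (0.00105 each), B2m (0.00161), Tap2 (0.0141) and Psmb8 (0.0162). Tapbp (0.0654), Psmb9 (0.118) and Nlrc5 (0.678) did not pass. For all 10 members and both hairpins the largest difference was in batch 3. The share of all genes with their largest difference there was not computed, so this describes the members only.

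Within batch 3, both libraries of each hairpin lay above both controls for 10 of 10 members, where 28.1% (shRNF185.1) and 30.5% (shRNF185.3) of all genes tested did so. The median log2 difference of the members there was 2.55 with shRNF185.1 and 2.93 with shRNF185.3. In batch 1 the medians were 0.68 and 0.29, with both hairpin libraries above both controls for 8 and 7 members beside 27.6% and 24.1% of all genes. In batch 2 they were 0.48 and 0.92, with 7 members for each hairpin beside 32.3% and 25.3% of all genes. H2-K1 ranged widest, from -0.83 in batch 2 to 3.82 in batch 3 with shRNF185.1 and from -1.12 to 4.72 with shRNF185.3. B2m was 0.93 and 1.01 in batch 3 but between -0.26 and 0.00069 in the other batches. Nlrc5 was higher in every batch, at 2.18, 3.15 and 3.34 in batches 1 to 3 with shRNF185.1. The values with shRNF185.3 were 2.81, 3.69 and 4.0.

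**Figure D4:**
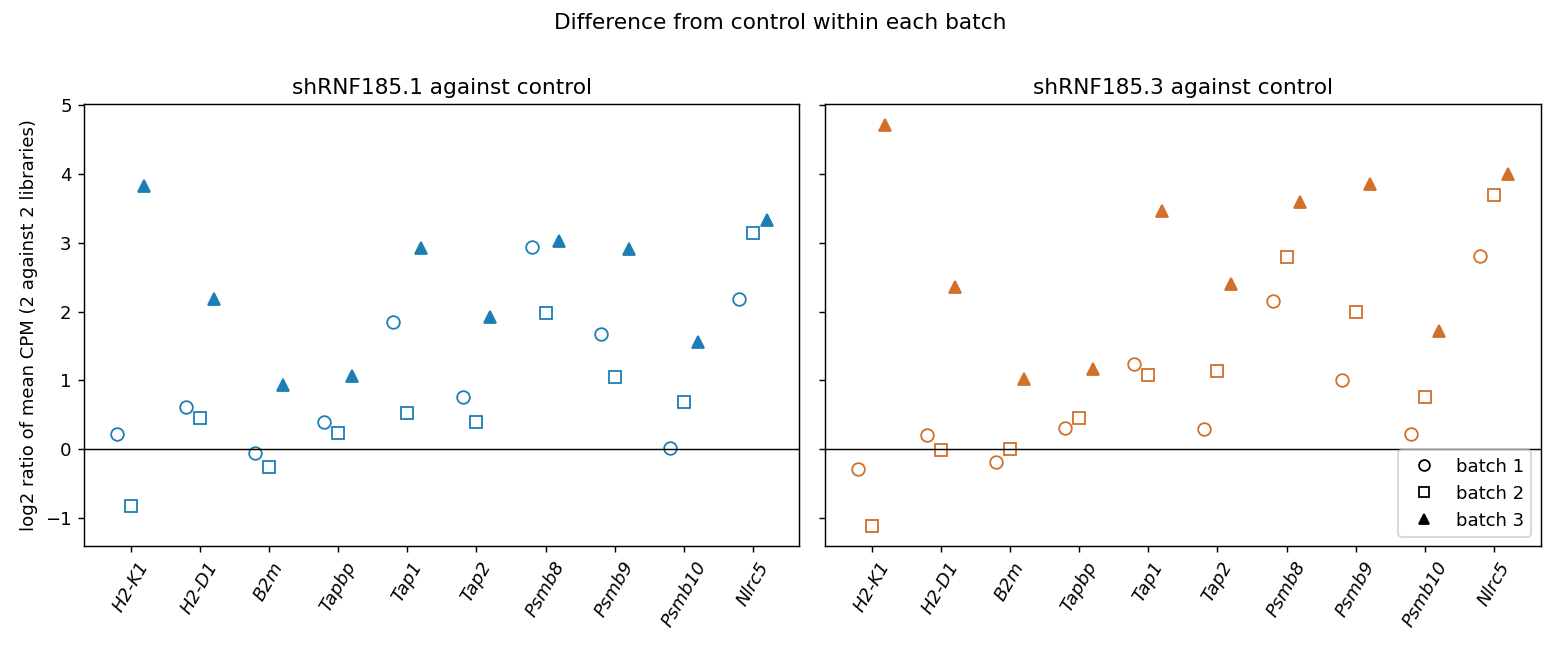
Log2 ratio of the mean CPM of the 2 hairpin libraries to the mean of the 2 control libraries of the same batch, for each class I member and hairpin; there is no error bar because each point rests on 2 libraries a group. The batch 3 value (filled triangle) is the highest for every member, and H2-K1 spans the widest range, below 0 in batch 2.

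With both hairpins, 7 members had a higher mean than control in all 3 batches, namely Tap1, Tap2, Tapbp, Psmb8, Psmb9, Psmb10 and Nlrc5. The share of all genes that did so was not computed, so this count describes the members only. Fitted without batch 3, 6 members were called higher with shRNF185.1 and 7 with shRNF185.3. Over all genes, 2501 were called in either direction with shRNF185.3 in that fit. In that fit the log2 fold changes were 2.69 and 3.29 for Nlrc5, 2.52 with either hairpin for Psmb8, 1.42 and 1.56 for Psmb9, 1.22 and 1.14 for Tap1, and 0.31 and 0.39 for Tapbp, all called. The largest of these moves were those of Psmb9 and Tap1 with shRNF185.3, from 2.25 and 1.82. Without only the 2 batch 3 controls, an alternative added after seeing the data, the counts were 8 and 7. The shares of all genes called higher in these refits are not given. In the full data all 6 hairpin libraries lay above the highest control for 4 members with shRNF185.1 (H2-D1, Tap1, Psmb8 and Nlrc5) and for 6 with shRNF185.3 (Tap1, Tapbp, Psmb8, Psmb9, Psmb10 and Nlrc5), while 7.02% and 7.6% of all genes did so.

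Compared directly, 0 members were called different between the hairpins by edgeR's quasi-likelihood test, where 14.7% of all genes were, and 1 member had an unadjusted p under 0.05. That member was Nlrc5, 1.54-fold higher with shRNF185.3 (95% interval 1.09 to 2.16, edgeR adjusted p 0.0807), with all 6 libraries above the highest of shRNF185.1. DESeq2 called it (adjusted p 0.00184), and so did limma on log2(CPM + 1) (adjusted p 0.00108) and edgeR without control replicate 4 (adjusted p 0.0062). The intervals of the other members do not show the hairpins to be alike. The 95% interval of the ratio of shRNF185.3 to shRNF185.1 ran from 0.88 to 1.28 for Tapbp and 0.517 to 3.05 for H2-K1. Without batch 3, H2-D1 was lower with shRNF185.3 by 0.43 on the log2 scale (edgeR log2 -0.43, adjusted p 0.00522).

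Other class I and class I-like chains moved in the same direction as H2-D1. Of 21 genes listed 11 were tested, and 10 were called higher with shRNF185.1 and 9 with shRNF185.3. Over all genes tested, 14.6% and 14.2% were called higher. Of the 11 chains 0 were called lower, and their median log2 fold changes were 0.95 and 0.82. The batch interaction was called for 6 of the 11, beside 9.81% of all genes. H2-Q4, a class I chain, went from 0.69 to 3.32 CPM in control (median 2.16 CPM) to 5.66 to 21.4 CPM (median 12.8 CPM) and 3.48 to 21.6 CPM (median 7.96 CPM). Its hairpin libraries lay above all controls, with log2 fold changes of 2.62 (SE 0.44, edgeR adjusted p 0.000176) and 2.36 (SE 0.44, edgeR adjusted p 0.000487). Without batch 3 the H2-Q4 values were 1.89 and 1.35, both still called. Several of the genes called do not present peptides: Fcgrt binds immunoglobulin G, Hfe acts in iron uptake, Cd1d1 presents lipids, Mr1 presents small metabolites, and Procr, called with shRNF185.1, binds protein C.

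The genes of peptide supply and loading outside the 10 members gave 2 calls among 8 proteasome genes tested, 1 among 7 trimming peptidases and 2 among 8 loading chaperones with each hairpin, beside 28.9% and 27.3% of all genes. Among 8 tested proteasome genes of 9 listed, the PA28 activator subunits Psme1 and Psme2 were called higher with both hairpins, and Psmb5, Psmb6, Psmb7, Psme3, Psme4 and Pomp were not called. Psme1 ranged from 45.8 to 86.0 CPM in control, from 89.8 to 122 CPM with shRNF185.1 and from 85.6 to 123 CPM with shRNF185.3. Its log2 fold changes were 0.51 and 0.54 (SE 0.14 each, edgeR adjusted p 0.00894 and 0.00652). The Psme1 call with shRNF185.1 was lost without batch 3 (log2 0.21, edgeR adjusted p 0.0522), and both calls were lost with summed libraries (edgeR adjusted p 0.0977 and 0.0831). Psme2 ranged from 76.8 to 99.2 CPM in control and from 109 to 151 CPM over the hairpin libraries, with log2 fold changes of 0.52 and 0.53 (SE 0.08 each, edgeR adjusted p 0.000112 and 9.96e-05). Both rose by less than 1.5-fold.

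Of 7 trimming peptidases tested, Erap1, the aminopeptidase that trims class I peptides in the endoplasmic reticulum, was the only one called with either hairpin. Erap1 ran from 28.8 to 36.8 CPM in control, from 49.9 to 52.3 CPM with shRNF185.1 and from 50.7 to 60.7 CPM with shRNF185.3. The fold change was 1.60 (95% interval 1.47 to 1.75, edgeR adjusted p 1.09e-07) and 1.75 (95% interval 1.6 to 1.91, edgeR adjusted p 1.87e-08). Unlike the 7 members above it gave no call in the batch interaction (edgeR adjusted p 0.646). Of 8 loading chaperones, Tapbpl, a tapasin-like peptide editor, and Uggt1, which marks misfolded glycoproteins, were called higher with both hairpins, while Calr, Canx and Pdia3 were not called. Tapbpl rose by 0.33 (SE 0.12, edgeR adjusted p 0.0454) and 0.44 (SE 0.12, edgeR adjusted p 0.0094) on the log2 scale, and the call with shRNF185.1 was lost without batch 3 (0.09, adjusted p 0.589) and in 10 of the 18 fits that left out 1 library. With shRNF185.3 the Tapbpl call was lost without batch 1 or batch 3 (edgeR adjusted p 0.0539 and 0.138).

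Regulators of class I transcription were called in both directions, as were all genes (28.9% and 27.3% in all, about evenly split). Of 16 tested, 4 were called higher with shRNF185.1 (Irf1, Irf7, Irf9 and Nfkb1) and 3 lower (Nfya, Nfyb and Creb1), and with shRNF185.3, 1 was called higher (Irf1) and 3 lower (Irf3, Nfya and Creb1). Irf1, a transcription factor that acts at interferon-response motifs of class I genes, ranged from 37.0 to 50.2 CPM in control, from 51.3 to 60.4 CPM with shRNF185.1 and from 60.2 to 76.2 CPM with shRNF185.3. All 12 hairpin libraries of Irf1 lay above the controls, and the hairpin ranges met only at their edges. The log2 fold changes were 0.30 (SE 0.08, edgeR adjusted p 0.00591) and 0.62 (SE 0.08, edgeR adjusted p 7.99e-06), and shRNF185.3 exceeded shRNF185.1 by 0.32 (SE 0.08, edgeR adjusted p 0.00794). Without batch 3 the Irf1 call with shRNF185.1 was lost (log2 0.14, edgeR adjusted p 0.12). The Irf1 call between the hairpins was lost without batch 1 (edgeR adjusted p 0.103) or batch 2 (0.0627) and with the libraries of a group and batch summed (0.0676), at log2 values of 0.30 to 0.32. Irf7, an interferon-induced transcription factor, had log2 fold changes of 1.74 (SE 0.45, edgeR adjusted p 0.00702) and 1.23 (SE 0.46, edgeR adjusted p 0.0523). The Irf7 call with shRNF185.1 was lost without batch 1 (edgeR adjusted p 0.155) and with summed libraries (0.0751). With shRNF185.3 Irf7 was called by DESeq2 (adjusted p 0.0477), by limma (0.0269), without batch 2 (log2 2.38, edgeR adjusted p 0.00133) and without any of 4 single libraries, and its log2 value without batch 3 was 0.29.

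Creb1, whose protein binds X2 boxes, fell with both hairpins. It ran from 47.5 to 63.5 CPM in control, from 36.1 to 40.3 CPM with shRNF185.1 and from 24.7 to 29.6 CPM with shRNF185.3, and the 3 ranges did not overlap. The log2 fold changes were -0.43 (SE 0.07, edgeR adjusted p 8.65e-05) and -0.94 (SE 0.07, edgeR adjusted p 1.36e-08), and the hairpins differed from each other by -0.52 (SE 0.07, edgeR adjusted p 3.37e-05).

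Class II presentation and interferon genes gave little RNA. Of 12 class II genes 3 were tested, and 8, including the class II regulator Ciita, never exceeded 3 counts in a library. H2-DMa was called higher with shRNF185.1, and H2-DMa, Cd74 and Ifi30 with shRNF185.3, beside 14.6% and 14.2% of all genes. Ifi30, a lysosomal thiol reductase, had log2 fold changes of 0.04 and 0.36 (SE 0.10 each), with edgeR adjusted p-values of 0.817 and 0.0126. Its call with shRNF185.3 was lost without batch 2 (log2 0.17, edgeR adjusted p 0.1) and with summed libraries (0.0699). None of the 11 interferon ligand genes listed, Ifnb1 and Ifng among them, exceeded 3 counts in any library, and 6 were at 0 in all 18. A count of 0 allows up to 3 counts, or 0.0701 to 0.133 CPM depending on the library, so an increase below that level was not detectable at this depth.

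Markers of other cell types were read beside these results, since class I RNA is abundant in leukocytes. Of 11 leukocyte markers Cd3e, Nkg7 and Tyrobp were at 0 in all 18 libraries, and Ptprc, Itgam, Adgre1 and Itgax never exceeded 3 counts. The summed level of the 11 was almost all Cd68, so it describes that gene. It was 2.48 to 5.21 CPM in control, 1.96 to 3.05 CPM with shRNF185.1 and 2.40 to 3.91 CPM with shRNF185.3. Cd68 and Ptprc had lower medians with both hairpins than in control. Cd79a, Csf1r and Lyz2 had higher medians with both, but never exceeded 5 counts. The part of leukocyte RNA in the class I differences was not tested. The summed level of 5 endothelial markers stayed under 0.744 CPM. Epithelial markers moved with the groups, from 1605 to 1931 CPM summed over 11 genes in control to 1057 to 1360 CPM and 1122 to 1212 CPM, with 4 of 8 tested called lower and 2 higher with shRNF185.1, and 3 lower and 1 higher with shRNF185.3. Summed over 8 genes, fibroblast and mesenchymal markers were at 3087 to 4096 CPM in control, 3691 to 4273 CPM with shRNF185.1 and 3842 to 4474 CPM with shRNF185.3, of which Thy1 never exceeded 3 counts. Most of that sum was Vim. Of 6 tested, Col1a1 and Pdgfrb were called higher and Dcn lower with shRNF185.1, and Col1a1, Pdgfrb, Pdgfra and Acta2 were called higher with shRNF185.3. Median CPM of Col1a1, a fibrillar collagen gene, went from 83.9 in control to 160 and 379 in the hairpin groups. The part of either shift in the class I differences was not tested, and in bulk RNA fewer cells of a type and less RNA per cell cannot be told apart.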

How the data were processed

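Libraries were made from polyadenylated RNA with a directional kit and sequenced as single reads of 75 bases, per the labels' protocols. The submitters' processing notes name cutadapt 2.3, STAR 2.7.0d, RSEM 1.3.1 and mm10, and the roles of these tools are not given in the sources used here. The authors deposited estimated counts (expected counts) per gene and a CPM signal, both adjusted by ComBat-Seq per the labels; whether the adjustment was told the groups is not given. Of the count values 0.466% are not whole, and all were rounded before testing, whereas the design had assumed whole counts. The CPM columns sum to 969986 to 1026394, since the deposited signal equals counts over a TMM-scaled library size.

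Genes with enough counts (filterByExpr, minimum 10) numbered 14309 and were fitted in edgeR 4.0.16 (R 4.3.3) with TMM scaling, a mean per group over all 18 libraries and the quasi-likelihood test, with Benjamini-Hochberg adjustment. The quasi-likelihood test gives no standard error, so the SE was taken as the absolute log2 fold change over the square root of its F statistic. Fold changes have 95% intervals from this SE and a t distribution with 15 residual degrees of freedom. Batch differences were tested by 4 interaction coefficients in a model with batch. Alternatives were other scalings, no filter, DESeq2 1.42.0, limma 3.58.1 on log2(CPM + 1), a batch covariate, the replicate number as a block, leaving out a batch or a library, and summing the 2 libraries of a group and batch. Fits were tested on simulated data. Chi-square comparisons of the 45 library pairs within groups gave 6.06 to 65.1 per gene, so none looked like 1 library deposited again. Intervals cover the spread between libraries, and floors cover counting error only.

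The members and gene lists were chosen with earlier results of these data known. Named genes were the 10 members, Rnf185, Psmb5, Psmb6, Psmb7 and, per list and hairpin, the gene called higher and lower with the largest change at a mean count of at least 50. Other genes are named to account for small counts, chosen after their values were seen. Nrdc, a listed peptidase, was not matched by symbol and was not analysed here. A few other listed genes are not reported here. Exon lengths joined all exons annotated to a gene in GENCODE M21.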

Additional observations from a re-analysis of the deposited data

Results flagged for a closer look

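Among 69 groups of 6 libraries (23 named genes in 3 groups), 4 held a library whose gap to its neighbour was large against the group's range by Dixon's criterion, where chance gives 3.45. Nlrc5 in control replicate 4 was at -5.42 log2 CPM, from 1 count, with the next library at -2.67. Psmb9 in shRNF185.1 replicate 4 was at -0.88 log2 CPM, with the next at 0.23. Creb1 in control replicate 5 was at 5.99 log2 CPM, with the next at 5.71. Ifi30 in shRNF185.3 replicate 4 was at 6.06 log2 CPM, with the next at 5.77.

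The hairpin effect differed between batches, by edgeR's interaction test, for 7 members and, among the related genes whose values are given, for 4. The adjusted p-values were 0.000226 for H2-D1, 0.000476 for Tap1, 0.00105 for H2-K1, 0.00105 for Psmb10, 0.00161 for B2m, 0.0141 for Tap2 and 0.0162 for Psmb8. They were 0.000552 for Psme1, 0.0043 for Irf7, 0.00608 for H2-Q4 and 0.0285 for Psme2.

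Among the genes whose values are given, the hairpins differed from each other, by edgeR's direct test, in Creb1, Ifi30 and Irf1. The differences were -0.52, 0.33 and 0.32 on the log2 scale. Some other listed genes were called too. The Ifi30 call was lost with no filter, the batch covariate, the replicate block, without batch 1 or batch 3 and with summed libraries (edgeR adjusted p 0.0654 to 0.283), and in 8 of the 18 fits that left out 1 library.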

How the results depend on the processing

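The count of members called with shRNF185.1 stayed at 8 in all 18 fits that left out 1 library and fell to 5 with the libraries of a group and batch summed, which ended the calls of H2-D1, Tap2 and Psmb10. With shRNF185.3 it was 7 to 8 in all fits. Between the hairpins 1 member was called with DESeq2, with limma and without batch 3, and 0 to 1 when 1 library was left out. The batch interaction held for 6 to 9 members. With the replicate block 8 and 7 members were called. Same-numbered libraries of different groups correlated at a mean r of -0.0144 in their deviations (18 pairs, -0.628 to 0.705). Differently numbered ones of the same batch were at -0.434, and those of other batches at 0.111. The adjustment left batch means nearly equal, which pushes correlations within a batch down. That 0 of 18 libraries correlated best with their own number therefore cannot decide whether the numbers pair the libraries. Same-numbered libraries had a higher mean than others of their batch, but not every pair was positive. The main fit took no pairing. The block ended the call of H2-D1 with shRNF185.3 (0.77, adjusted p 0.0828).

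Directions that turned were those of H2-K1 without batch 3 (-0.27, -0.69 and, between hairpins, -0.42), with limma (between hairpins -0.0075) and without shRNF185.3 replicate 5 (between hairpins, from -0.39 to 0.51 over all libraries left out), of B2m without batch 3 (-0.16 and -0.086), without the batch 3 controls (-0.056 with shRNF185.1) and without batch 2 (between hairpins -0.011), of Tap1 without batch 3 and Psmb8 without batch 2 (between hairpins -0.077 and -0.061), of Psmb6 without batch 1 (0.0065), of Psmb7 without batch 2 (-0.10 and -0.0075) and over libraries left out (-0.027 to 0.039), and of Ifi30 with shRNF185.1 without batch 2 (-0.19) and over libraries left out (-0.022 to 0.093). None of these values had been called. Limma on log2(CPM + 1), a scale that understates low genes, gave 1.21 and 1.64 for Nlrc5 and 0.71 and 0.97 for Psmb9. Without batch 2, Tap1 was at 2.27 with shRNF185.1. Differences in library totals between hairpins ranged from -1.83 to 0.434 M counts with 1 library left out.

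Counts of the related lists moved too. Proteasome genes called numbered 4 without batch 2 and 1 without batch 3 and with summed libraries (shRNF185.1), and 1 with summed libraries (shRNF185.3). Trimming genes numbered 2 without batch 2 (shRNF185.1). Chaperones numbered 1 with shRNF185.1 without the filter, with the batch covariate, with the replicate block, without batch 1, with summed libraries and in 10 of 18 fits with 1 library left out (range 1 to 2), and 1 with shRNF185.3 without batch 1, without batch 3, without the batch 3 controls and with summed libraries. Regulators numbered 4 without batch 1 or batch 3 (shRNF185.1), and 8 with DESeq2 and 9 without batch 2 (shRNF185.3). Class II genes numbered 0 without batch 1 or batch 3 (shRNF185.1). Over all genes, calls numbered 2207 and 2120 without batch 1 and, with shRNF185.3, 2501 without batch 3, in place of 4141 and 3906; between the hairpins they numbered 753 without batch 1 and 1208 without batch 2, in place of 2098. The interaction gave 2339 with DESeq2, 3169 without the filter and 503 to 1649 with 1 library left out, in place of 1404. The cause was not tested. Hairpin-to-hairpin counts of the related lists are not reported. Depth limits Nlrc5 and Psmb9, which had as few as 1 and 3 counts in a control library.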
